A study of Epinephelus fuscoguttatus x Epinephelus lanceolatus with 9 samples.

Results

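The gut hormone genes insl5a, mlnl and pyya were followed through 9 RNA sequencing libraries of grouper intestine. The fish, pearl gentian grouper, is a cross between Epinephelus fuscoguttatus and Epinephelus lanceolatus that is raised in aquaculture. They were chosen by name from the first column of the deposited count table. All 3 were found among its 22344 genes, and all 3 passed the filter on low counts that left 17731 genes for testing. Each of the groups FM, SBM and Drug holds 3 libraries. Aquaculture work often shortens fish meal to FM and soybean meal to SBM, though neither term is spelled out in the labels. The title of the series names the medicinal herb Lithospermum erythrorhizon, and no strain, allele, age, dose, feeding time or base diet is given for any group. No gut segment is given, and nothing states that each library is a different fish rather than a pool or a repeat. The p-values therefore rest on library-to-library spread alone, part or all of which may be technical.

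Enteroendocrine cells are scattered hormone-secreting cells of the gut epithelium that sense the gut contents. INSL5 is a peptide of the relaxin and insulin family, made in mouse mainly by L cells of the colon, where it is linked to appetite and glucose balance. Motilin is released in the upper small intestine of many mammals between meals and drives waves of gut contraction through its receptor on nerve and muscle, and mlnl is the motilin-like gene of fish. Peptide YY is released after a meal and restrains appetite and gut movement in mammals. Fish carry duplicated copies of its gene, of which pyya is one, and in teleosts peptide YY is also made in the endocrine pancreas. All of these peptides are cut from larger precursors in secretory granules, and peptide YY is amidated at its end before release.

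Total counts were 32.9 to 35.5 M per library, and 20150 to 20588 genes had a count in each. The intestinal transcription factor cdx1a was present throughout, at 157 to 561 CPM (read counts scaled to a common library size, with TMM factors). FM replicate 3 stood apart: a list of 13 hepatocyte genes summed to 21092 CPM there and to 49.0 and 49.4 CPM in the other FM libraries. Of the enteroendocrine markers, the transcription factor neurod1 was at 4.98 to 14.9 CPM and the prohormone convertase pcsk1 at 4.36 to 26.5 CPM, while chromogranin A (chga) did not exceed 0.659 CPM. Neurod1, pcsk1 and chga were named for their roles after their values were seen.

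The hormones differed in how much they varied. Across the 9 libraries insl5a spanned 3.21-fold and mlnl 1.95-fold, whereas pyya spanned 247-fold. The mean of pyya was lowest in FM, intermediate in SBM and highest in Drug. None of the 3 passed the adjusted threshold of 0.05 in any comparison with edgeR's quasi-likelihood test, the pyya difference between Drug and FM included (adjusted p = 0.131).

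**Figure D1:**
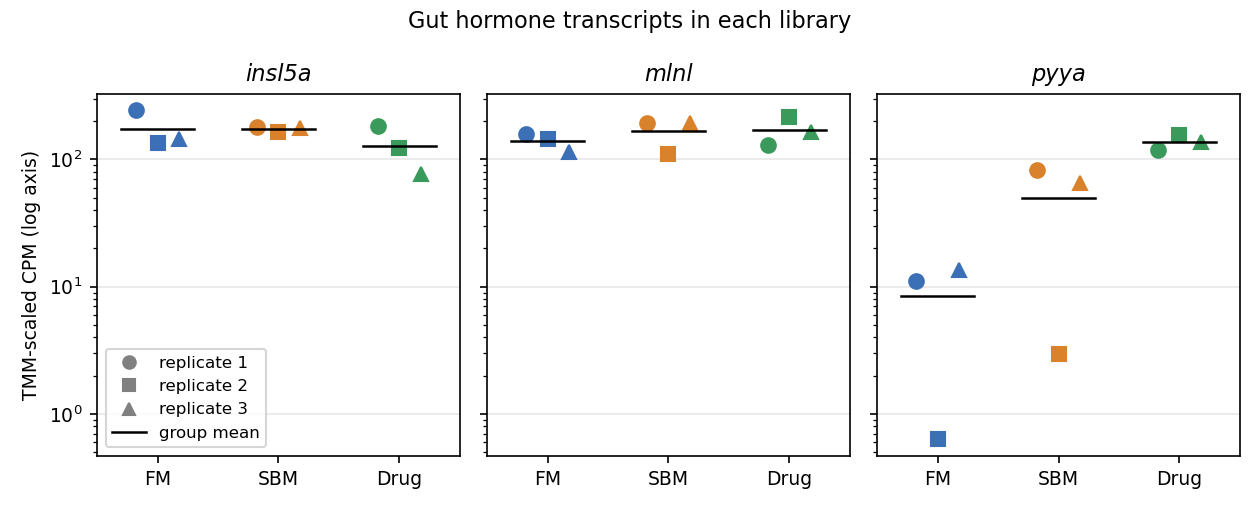
TMM-scaled CPM (log axis) of insl5a, mlnl and pyya in the FM, SBM and Drug libraries, with 1 symbol per replicate and a line at each group mean. The insl5a and mlnl values lie between 76.3 and 245 CPM in every library, while pyya runs from 0.633 CPM in FM replicate 2 to 157 CPM in Drug replicate 2.

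The insl5a transcript was at 245, 135 and 144 CPM in FM replicates 1, 2 and 3. It was at 181, 164 and 176 CPM in SBM and at 182, 122 and 76.3 CPM in Drug. FM replicate 1 was thus the highest library and Drug replicate 3 the lowest, the SBM libraries lay close together, and every pair of groups overlapped. The group means were 174 ± 61.2 CPM in FM, 174 ± 8.81 CPM in SBM and 127 ± 52.8 CPM in Drug (SD, n = 3). The log2 fold change was -0.01 for SBM vs FM (SE 0.32, adjusted p = 0.994 with edgeR), and its 95% interval ran from 0.601-fold to 1.65-fold. It was -0.46 for Drug vs FM (SE 0.32, adjusted p = 0.430) and -0.45 for Drug vs SBM (SE 0.32, adjusted p = 0.583), with intervals of 0.438-fold to 1.21-fold and 0.439-fold to 1.21-fold. The Drug difference rested on single libraries: without Drug replicate 3 the Drug vs FM log2 fold change was -0.20, without FM replicate 1 it was -0.13, and without Drug replicate 1 it was -0.81. These intervals leave room for changes in either direction, so equal levels were not shown.

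The mlnl transcript was at 158, 144 and 113 CPM in FM, at 192, 111 and 195 CPM in SBM and at 129, 217 and 163 CPM in Drug. SBM replicate 2 was the lowest library and Drug replicate 2 the highest, and all groups overlapped. The means were 138 ± 22.7 CPM in FM, 166 ± 47.3 CPM in SBM and 170 ± 44.0 CPM in Drug (SD, n = 3). The log2 fold change was 0.26 for SBM vs FM (SE 0.27, adjusted p = 0.616 with edgeR), with an interval from 0.788-fold to 1.82-fold. It was 0.29 for Drug vs FM (SE 0.27, adjusted p = 0.555) and 0.03 for Drug vs SBM (SE 0.27, adjusted p = 0.972). The interval of the last ran from 0.673-fold to 1.55-fold. The motilin receptor gene mlnr, named for its role after its values were seen, did not exceed 0.208 CPM in any library and was not tested.

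The pyya transcript was at 11.0, 0.633 and 13.5 CPM in FM. In SBM it was at 81.9, 2.96 and 65.2 CPM, and in Drug at 119, 157 and 137 CPM. All 3 Drug libraries lay above every FM and every SBM library, while SBM replicate 2 fell inside the FM range and the other SBM libraries lay above it. Between SBM and FM libraries of the same replicate number, pyya was 7.45-fold, 4.67-fold and 4.83-fold higher in SBM for replicates 1, 2 and 3. The labels do not call same-numbered libraries pairs, and the order of replicates differed in Drug. There replicate 2 was the highest library, at 157 CPM, while it was the lowest in FM and in SBM. With replicate number as a block the log2 fold change for SBM vs FM was 2.52 (adjusted p = 0.281 with edgeR). The raw counts behind the 2 lowest values were 24 in FM replicate 2 and 103 in SBM replicate 2. For FM replicate 2 the exact Poisson 95% interval was 0.405 to 0.942 CPM, which covers counting error only, so counting error was small beside the distance to the other libraries.

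The mean of pyya was 8.38 ± 6.82 CPM in FM, 50.0 ± 41.6 CPM in SBM and 138 ± 18.6 CPM in Drug (SD, n = 3). Drug exceeded FM by a log2 fold change of 4.04 (SE 1.35), or 16.4-fold with a 95% interval of 1.84-fold to 147-fold. Its unadjusted p in the edgeR model was 0.0189 and its adjusted p = 0.131, against 4.38% of the 17731 genes past the threshold in this comparison. That share was unstable, since 777 genes passed with all libraries and 10 without FM replicate 2. Without SBM replicate 1, a library outside this comparison, 1711 passed. DESeq2 gave an adjusted p of 0.0101 for the same difference, with 14% of its 17529 genes called; in SBM vs FM and Drug vs SBM it called 9.53% and 3.98% of genes and none of the 3 hormones. Over 18 alternatives the log2 fold change stayed between 3.50 and 5.22, and DESeq2 was the only one under which it passed (adjusted p 0.0101 to 0.260). Only 69 tested genes had a larger positive log2 fold change in Drug vs FM than pyya, and 26 of these passed.

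For SBM vs FM the log2 fold change of pyya was 2.58 (SE 1.27, adjusted p = 0.300 with edgeR), or 5.97-fold with an interval of 0.764-fold to 46.7-fold. In that comparison 0.592% of genes passed, and 105 calls became 295 with replicate number as a block. Without SBM replicate 2 the value was 3.14 (adjusted p = 0.170). For Drug vs SBM it was 1.46 (SE 1.21, adjusted p = 0.643), or 2.75-fold with an interval of 0.384-fold to 19.8-fold, where 0.0395% of genes passed. Without SBM replicate 2 it was 0.92. Drug and SBM libraries did not overlap for pyya, as for 19.9% of all tested genes, and Drug and FM libraries did not overlap, as for 32.8% of them. Separation of the groups was therefore common among genes and does not by itself mark out pyya.

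**Figure D2:**
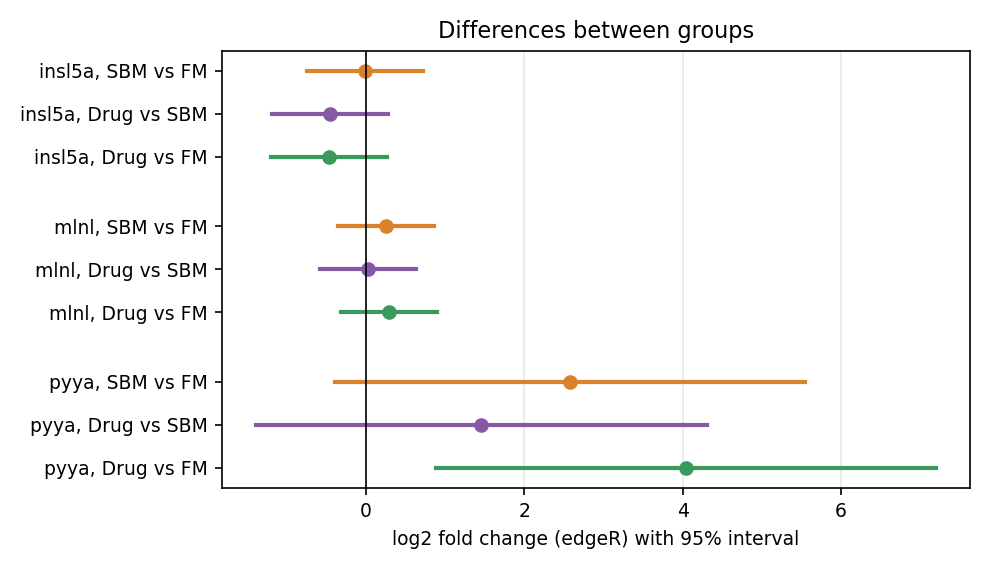
The log2 fold change of each hormone gene (edgeR, point) with its 95% interval (line) in the comparisons of SBM with FM, Drug with SBM and Drug with FM. The intervals of insl5a and mlnl are narrow and cross 0, and those of pyya are wide, with Drug vs FM, from 0.88 to 7.20, the only one that does not reach 0 before adjustment.

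The width of the pyya intervals came from the spread inside FM and SBM. On the log2(CPM + 1) scale the SD of pyya was 1.75 in FM and 2.45 in SBM, larger than that of 98.6% and 99.8% of tested genes, whose medians were 0.21 and 0.26. In Drug its SD was 0.19, close to the median of 0.19 over all tested genes. The pattern of insl5a differed: its SD was 0.47 in FM, 0.07 in SBM and 0.62 in Drug, larger than that of 86.4%, 7.06% and 95.9% of tested genes. The SD of mlnl was 0.24, 0.46 and 0.37. These values describe 3 libraries each, and no test was made of the differences in spread.

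Levels of different genes were compared on the deposited FPKM scale, which divides by gene length. The lengths behind it, recovered from counts and FPKM, were 563 bases for insl5a, 678 for mlnl and 827 for pyya. On that scale insl5a ranked between 199 and 552 of all genes in a library and mlnl between 273 and 481, so both were abundant transcripts of this tissue in all 9 libraries. The rank of pyya was 408 to 546 in Drug, 824 and 944 in SBM replicates 1 and 3, 8375 in SBM replicate 2, and 3256 to 13409 in FM.

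The summed FPKM of the 3 genes lay between 431 and 741 in the 9 libraries, a 1.72-fold span, while its make-up varied more. The pyya share of that sum was 1.95%, 0.169% and 3.72% in FM. It was 14.1%, 0.779% and 11.6% in SBM, and 21.95%, 26.1% and 30.6% in Drug. Mean shares of pyya were 1.95 ± 1.77% in FM and 26.2 ± 4.33% in Drug (SD, n = 3), and no Drug library overlapped an FM or SBM library. A two-sided exact permutation test gave p = 0.1 for both contrasts with Drug, the smallest p that 3 against 3 libraries allow, and 0.4 after adjustment over 12 such tests. The insl5a share was 58.3 ± 5.47% in FM, 51.7 ± 10.1% in SBM and 34.7 ± 12.7% in Drug, and the exact permutation p for Drug vs FM was again 0.1. Since shares add up to a whole, they are not independent: a larger share of 1 gene lowers the summed share of the others. The mlnl share was 39.8 ± 6.51%, 39.4 ± 3.33% and 39.1 ± 8.78% in FM, SBM and Drug.

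**Figure D3:**
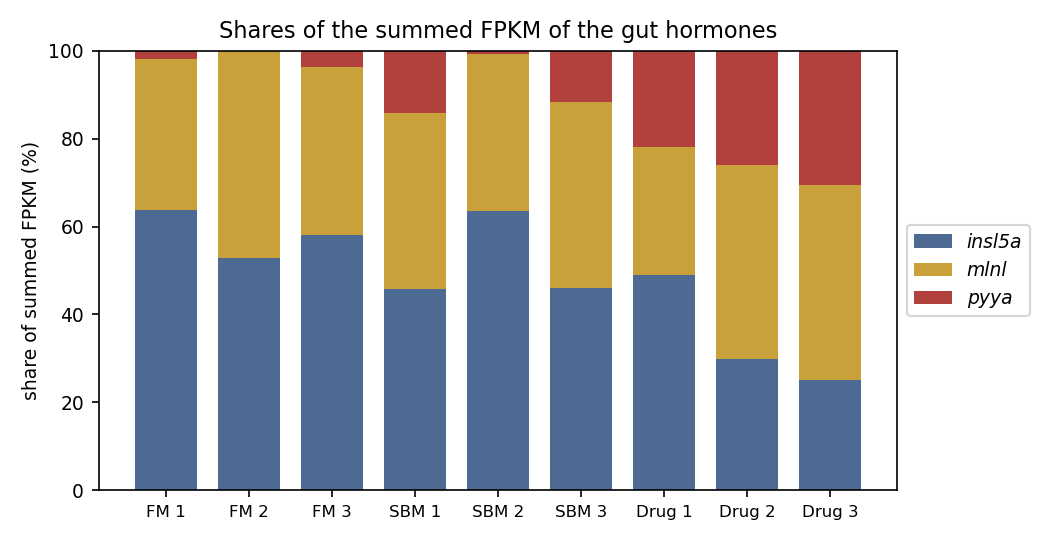
Stacked bars of the share (%) of each gene in the summed FPKM of insl5a, mlnl and pyya, 1 bar per library. The pyya part is 0.169% to 3.72% in FM and 21.95% to 30.6% in Drug, and SBM replicate 2, at 0.779%, resembles FM rather than the other SBM libraries.

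Summed transcripts of regional enterocyte types also differed between libraries, only partly in the order of pyya. Enterocytes of the anterior gut absorb fat, and lysosome-rich enterocytes of the posterior gut take up whole protein. A list of 8 anterior lipid genes summed to 1025, 615 and 1151 CPM in FM, 5215, 1020 and 3325 CPM in SBM, and 7374, 6183 and 7864 CPM in Drug. FM replicate 2 and SBM replicate 2, the libraries with the least pyya, were the lowest of their groups here too. Drug replicate 2 was also the lowest of its group, at 6183 CPM, though it had the most pyya, at 157 CPM. Most of this sum was the fatty acid carrier fabp2 in every library, at 402 to 6598 CPM, so it mainly follows that gene. A list of 17 lysosome-rich enterocyte genes was lower on average in Drug than in FM, at 30886, 27390 and 23613 CPM in FM, 12627, 30795 and 19213 CPM in SBM, and 14932, 14456 and 11718 CPM in Drug. In SBM the lysosome-rich sum was highest in replicate 2, where pyya was lowest, while in FM it was highest in replicate 1. The part of gut region or cell make-up in the pyya difference was not tested. In bulk tissue, fewer cells of a type and less RNA per cell cannot be told apart.

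Of the 6 tested anterior lipid genes, 2 rose in Drug vs FM with edgeR, against 4.38% of all genes called, and 4 did not pass. DESeq2 called 4 there, all higher, against 14% of all genes, and 4 had an unadjusted p under 0.05, against 23.8%. With edgeR none passed in SBM vs FM or Drug vs SBM, where 3 and 2 had an unadjusted p under 0.05, against 20.5% and 13.1%. DESeq2 called 3 and 2 there, against 9.53% and 3.98% of all genes. The intracellular fatty acid carrier fabp2 rose 9.17-fold with edgeR (adjusted p = 0.0183), and its mean was 653 ± 225 CPM in FM and 5985 ± 778 CPM in Drug (SD, n = 3). The monoacylglycerol acyltransferase mogat2, which rebuilds fat inside the enterocyte, rose from 23.2 ± 6.85 to 115 ± 26.0 CPM (log2 fold change 2.31, adjusted p = 0.0406). The list's median log2 fold change in Drug vs FM was 1.97, against -0.04 over all tested genes. The cholesterol uptake protein npc1l1 was at 78.0 CPM in FM and 627 CPM in Drug (adjusted p = 0.0581), and the fatty acid transporter slc27a4 at 85.4 and 264 CPM (adjusted p = 0.0563). In dgat2 and pck1 the log2 fold change was 1.30 and 0.87 (adjusted p = 0.333 and 0.755).

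Of the 16 tested lysosome-rich enterocyte genes, 1 fell in Drug vs FM with edgeR, a share near the 4.38% of all genes called. In that comparison 7 had an unadjusted p under 0.05, against 23.8% of all genes, and DESeq2 called 5 lower and 1 higher, against 14%. The edgeR call was the endocytic receptor lrp2b, from 2323 ± 477 to 941 ± 181 CPM (log2 fold change -1.30, adjusted p = 0.0186 with edgeR). The cobalamin and protein receptor cubn was at 2910 CPM in FM and 977 CPM in Drug (adjusted p = 0.0648), and the cathepsin ctsl.1 at 10663 and 4129 CPM (adjusted p = 0.0852). The list's median log2 fold change was -0.60, and with edgeR none passed in SBM vs FM or Drug vs SBM, where 1 and 5 had an unadjusted p under 0.05 and DESeq2 called 1 and 2. Of 21 tested genes for gut regional identity, 1 fell in Drug vs FM, the intestinal transcription factor cdx1a, from 473 ± 96.8 to 210 ± 45.8 CPM (adjusted p = 0.0266 with edgeR). That share too is near the 4.38% of all genes called, while 8 had an unadjusted p under 0.05, against 23.8%, and DESeq2 called 4 lower and 1 higher, against 14%. Their median was -0.92. None of the 21 passed in the other comparisons with edgeR, where 6 (SBM vs FM) and 7 (Drug vs SBM) had an unadjusted p under 0.05. DESeq2 called 2 in each. Over all tested genes, unadjusted p was under 0.05 in 20.5% and 13.1% there, and DESeq2 called 9.53% and 3.98%.

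Taken as a ratio within each library, pyya stood at 15.3, 1.57 and 16.1 CPM per 1000 CPM of fabp2 in FM, 27.4, 3.78 and 26.2 in SBM, and 19.1, 30.6 and 20.8 in Drug. This ratio, chosen after the values were seen, spanned 19.5-fold over the 9 libraries, against 247-fold for pyya and 16.4-fold for fabp2 alone. FM replicates 1 and 3 lay somewhat below the Drug libraries, and the ratio remained low in FM replicate 2 and SBM replicate 2.

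**Figure D4:**
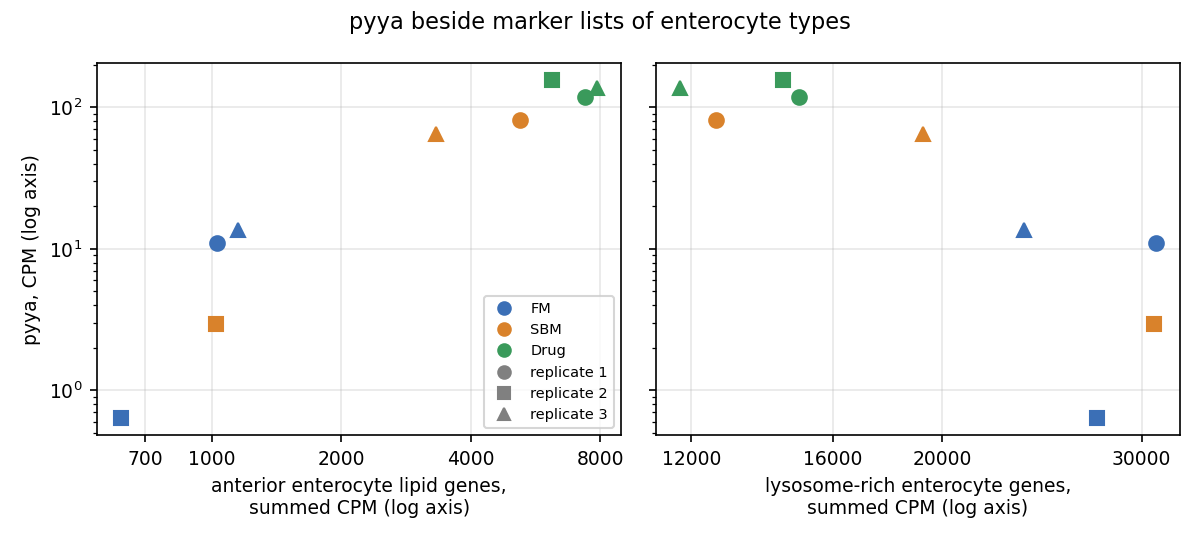
CPM of pyya in each library (y, log axis) against the summed CPM of anterior enterocyte lipid genes (left, log axis) and of lysosome-rich enterocyte genes (right, log axis), coloured by group with 1 symbol per replicate. The Drug libraries sit at 6183 CPM or more of anterior gene transcripts and at 119 to 157 CPM of pyya, and SBM replicate 2 lies among the FM libraries in both panels. Most of the anterior sum is fabp2 in every library.

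The genes whose pattern over the 9 libraries was most like that of pyya were found by Pearson's r of log2(CPM + 1) among 8781 named genes with a mean of at least 5 CPM, given as a description. The 5 nearest were mep1a.2 and mep1a.1, copies of the brush border protease meprin A that may share reads, the neutral amino acid transporter slc6a19b, afp4, named for type IV antifreeze protein, and zgc:153896, with r from 0.987 to 0.990. The amino acid transporter slc6a19b was at 127, 23.0 and 156 CPM in FM, 914, 51.9 and 443 CPM in SBM, and 645, 840 and 1059 CPM in Drug. It was lowest in FM replicate 2 and SBM replicate 2, as pyya was, which largely follows from its selection by r. None of these 5 passed in any comparison (smallest adjusted p = 0.0821, for mep1a.1 in Drug vs FM).

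Genes nearest to insl5a varied far less. They were napgb, of vesicle fusion, the proton pump subunit atp6v1g1, tcima, the kinase anchor akap12b and the microtubule-end protein clip1b, with r from 0.890 to 0.949. The first of these, napgb, ranged only from 23.5 to 30.6 CPM. Nearest to mlnl were arhgap31, the chromatin remodeller smarca4a, the adenosine receptor adora2ab, the vesicle protein vamp2 and the lipid flippase atp8a1, with r from 0.857 to 0.896. Among the hormones themselves r was 0.58 between pyya and mlnl, -0.24 between pyya and insl5a and -0.09 between mlnl and insl5a. All 9 libraries enter each r with their group differences. By this measure pyya ranked 378 among the genes nearest to mlnl, and mlnl ranked 1578 among those nearest to pyya.

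Other gut peptides are listed with the hormones. Of 46 hormone and neuropeptide genes listed, 19 were in the table and 15 were tested, these 3 members included. All lists were matched by exact symbol, and 8101 of the 22344 genes in the table carry a LOC number only. A listed gene that was not found may thus stand under such a number, so its absence was not shown. With edgeR none passed in any comparison, while 4 (SBM vs FM), 0 (Drug vs SBM) and 5 (Drug vs FM) had an unadjusted p under 0.05, as did 20.5%, 13.1% and 23.8% of all tested genes. DESeq2 called 2, 0 and 5, all higher, against 9.53%, 3.98% and 14% of all genes, and the 5 in Drug vs FM were pyya, sst1.2, adcyap1a, tac3a and tph1a. Of these, sst1.2 and tph1a, also the 2 called in SBM vs FM, did not exceed 0.938 and 0.983 CPM in any library. The median log2 fold change of the 12 tested genes other than the members was 0.64 in SBM vs FM, -0.08 in Drug vs SBM and 0.63 in Drug vs FM, against 0.01, -0.01 and -0.04 over all tested genes. The neuropeptide gene adcyap1a, which encodes PACAP, was at 39.2 ± 8.73 CPM in FM and 78.4 ± 7.41 CPM in Drug (SD, n = 3; adjusted p = 0.0844 with edgeR). Tachykinin tac3a was at 25.8 ± 11.5 and 83.2 ± 20.9 CPM (adjusted p = 0.0769). The tachykinin precursor tac1 was at 18.6 and 23.3 CPM in FM and Drug, and neuromedin U (nmu) at 3.46 and 6.01 CPM. Ghrelin (ghrl), named for its role after its values were seen, did not exceed 0.0295 CPM.

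**Figure D5:**
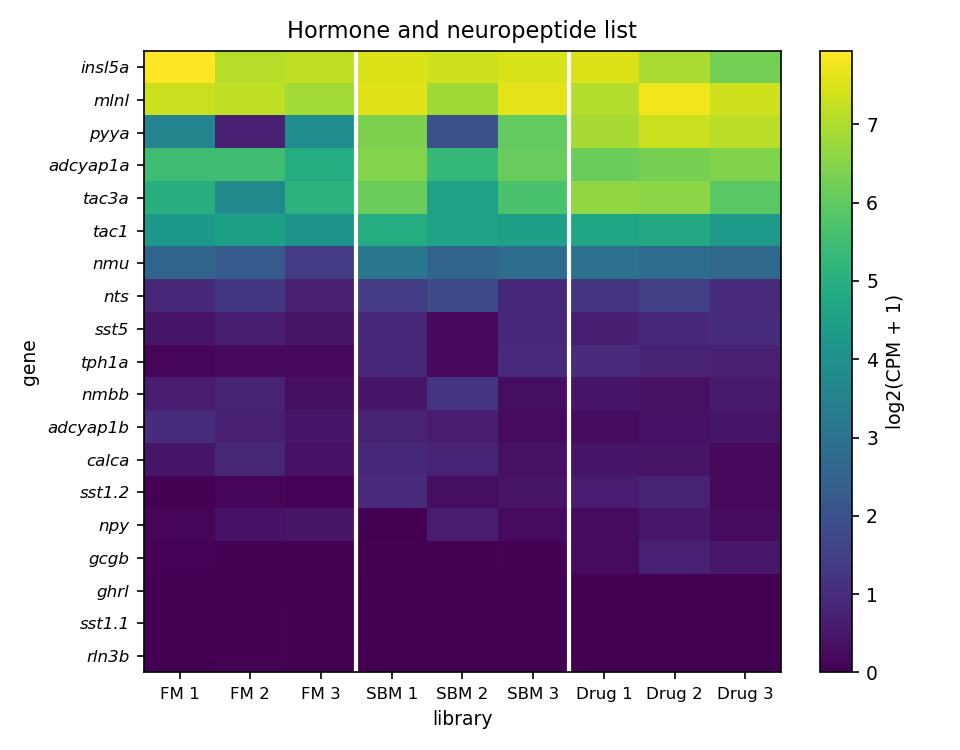
Heat map of log2(CPM + 1) for the 19 hormone and neuropeptide genes found in the table (rows, ordered by mean CPM) in the 9 libraries (columns, FM, SBM and Drug from left to right). The insl5a and mlnl rows are bright in all libraries. The pyya row is darkest in FM replicate 2 and SBM replicate 2 and brightest in Drug, and adcyap1a and tac3a follow these rows by mean CPM.

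Next come the genes that pack and cut these peptides. Of 22 tested secretory granule genes none passed with edgeR in any comparison. An unadjusted p under 0.05 was found for 0, 1 and 1 in SBM vs FM, Drug vs SBM and Drug vs FM. Over all tested genes the shares were 20.5%, 13.1% and 23.8%. DESeq2 called 1, rab3da, lower in Drug vs FM, against 9.53%, 3.98% and 14% of all genes in the 3 comparisons. The list summed to 155 to 221 CPM in FM, 185 to 331 CPM in SBM and 205 to 230 CPM in Drug, so the groups overlapped. Its median log2 fold change was 0.59, -0.14 and 0.25 in the same order. The amidating enzyme pam, which peptide YY needs, was at 55.7 ± 0.726 CPM in FM, 61.9 ± 12.8 CPM in SBM and 52.9 ± 5.47 CPM in Drug (SD, n = 3). Secretogranin scg3 was at 33.5, 58.7 and 52.8 CPM, the convertase inhibitor pcsk1nl at 11.6, 16.4 and 13.4 CPM, and the granule tether sytl4 at 32.3 CPM in FM and 24.3 CPM in Drug.

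Of 23 tested transcription factors of the enteroendocrine lineage, none passed with edgeR. In SBM vs FM, Drug vs SBM and Drug vs FM 4, 3 and 6 had an unadjusted p under 0.05, against 20.5%, 13.1% and 23.8% of all genes, and DESeq2 called neurod1 higher in SBM vs FM, etv5a lower in both Drug comparisons and foxa3 lower in Drug vs FM. Of all genes DESeq2 called 9.53%, 3.98% and 14% in these comparisons. The list's median log2 fold changes were 0.37, -0.03 and -0.06. The 4 most abundant, hnf4a, foxa3, etv5a and sox4a, are also expressed by other epithelial cells, and etv5a was at 33.9, 54.3 and 17.0 CPM in FM, SBM and Drug (adjusted p = 0.0902 for Drug vs FM with edgeR).

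Islet genes were counted because peptide YY is also made in the pancreas of teleosts. Insulin (ins), named for its role after its values were seen, was at 0.0274 to 0.313 CPM. None of the 3 tested genes of the islet list passed with edgeR. Unadjusted p was under 0.05 for 2, 0 and 1 in SBM vs FM, Drug vs SBM and Drug vs FM. Over all tested genes the shares were 20.5%, 13.1% and 23.8%. DESeq2 called 2, 0 and 1, all lower, against 9.53%, 3.98% and 14% of all genes. The list summed to 48.9 to 74.1 CPM in FM, 26.1 to 33.3 CPM in SBM and 32.6 to 38.9 CPM in Drug, nearly all of it mafa and mafba, and pdx1 did not exceed 3.47 CPM. The glucagon gene gcgb, under the filter and not tested, was at 0.0264 to 0.0547 CPM in FM and 0.171 to 0.658 CPM in Drug. The part of islet tissue in the pyya difference was not tested.

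Receptors for these peptides were tested where their counts allowed, which held for 11 of 20 in the table. None passed with edgeR, with 1, 2 and 5 at an unadjusted p under 0.05 in SBM vs FM, Drug vs SBM and Drug vs FM, against 20.5%, 13.1% and 23.8% of all genes. The relaxin family receptor rxfp3.3b was at 78.1 ± 18.9 CPM in FM, 73.9 ± 8.86 CPM in SBM and 41.5 ± 9.20 CPM in Drug (SD, n = 3; adjusted p = 0.0530 for Drug vs FM with edgeR). DESeq2 called it alone of the 11, lower in both Drug comparisons. Of all genes DESeq2 called 3.98% in Drug vs SBM and 14% in Drug vs FM. Of the receptors of the neuropeptide Y and peptide YY family, npy7r was at 36.8, 40.6 and 63.8 CPM in FM, SBM and Drug (adjusted p = 0.117 for Drug vs FM). The npy8br receptor was at 61.2, 38.9 and 36.4 CPM (adjusted p = 0.168), and the glucagon receptor gcgrb at 8.55, 6.88 and 4.75 CPM. The list's median was -0.32, -0.25 and -0.70.

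Among genes that sense or carry luminal nutrients, 6 were tested and none passed with edgeR, with 1, 0 and 4 at an unadjusted p under 0.05, against 20.5%, 13.1% and 23.8% of all genes. DESeq2, which called 9.53%, 3.98% and 14% of all genes, called 1, 0 and 3 of them. These were the taste-cell channel trpm5, lower in SBM vs FM and Drug vs FM, and trpa1b and slc15a1a, higher in Drug vs FM; trpm5 was named after its values were seen. The peptide transporter slc15a1a was at 2.57, 0.132 and 5.63 CPM in FM, 17.4, 0.603 and 32.1 CPM in SBM, and 51.5, 217 and 295 CPM in Drug (adjusted p = 0.0952 for Drug vs FM). As with pyya, FM replicate 2 and SBM replicate 2 were lowest and no Drug library overlapped the others. Such separation of Drug held for 32.8% of all tested genes against FM and for 19.9% against SBM. The glucose transporter slc5a1 was at 212, 289 and 324 CPM on average in FM, SBM and Drug, and the irritant channel trpa1b, found on enteroendocrine cells of zebrafish, at 6.76, 8.04 and 10.1 CPM. The glucose carrier slc2a2 was at 215 CPM in FM replicate 3 and at most 27.7 CPM elsewhere. The list's median was 0.29, 0.67 and 0.60.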

How the data were processed

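RNA came from TRIzol extraction, and the library kit was VAHTS Universal V6, per the labels' protocols. HTSeq, HISAT2, fastp, R 3.2.0 and DESeq2 appear in the submitters' processing notes with no role stated. The notes also list the mouse build mm10, which the fish gene symbols go against, so the genome used is not known here. Hybrid alleles that differ from it can be undercounted. The count values, as deposited by the authors, were whole reads for each gene without normalization, and the 9 single-library files equalled their columns of the series table. The deposited FPKM values equalled count over library total and a fixed gene length in all 15780 genes that reached 10 counts in each library (relative tolerance 1e-06).

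Counts of all 9 libraries were fitted in 1 model with edgeR 4.0.16 in R 4.3.3 (filterByExpr, TMM, robust quasi-likelihood F test, 6 residual degrees of freedom). P-values were two-sided and Benjamini-Hochberg adjusted over 17731 genes. DESeq2 1.42.0, limma 3.58.1 on log2(FPKM + 1) and log2(FPKM + 0.1), and other filters and library sets were alternatives. Each SE was the size of the log2 fold change divided by √F. The fit was tested on simulated data. The hormones, the 13 gene lists, tests and alternatives were chosen with earlier results of these data known. Named are the hormones, list members that passed, up to 4 further members of highest mean CPM per list, and 5 genes of like pattern per hormone.

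Replicate numbers shared between groups were checked for pairing. Deviations of same-numbered libraries from their group means correlated at 0.23, 0.32 and 0.16 between SBM and FM, all over 0.1. The values were 0.07, 0.19 and 0.37 between Drug and SBM, and 0.11, 0.11 and 0.05 between Drug and FM. In each comparison, every library of the first-named group correlated best with the same-numbered library of the other. The main model holds no term for replicate number, and the replicate block was 1 of the alternatives. Within groups, libraries differed by a chi-square of at least 56.1 per degree of freedom, so none was treated as a copy. Fish genes are often duplicated and near-identical copies can share reads, and counting is not stated to use strand. No sequences of the hormones were used here. 1 gene of the gut regional list is not reported here.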

Additional observations from a re-analysis of the deposited data

How the results depend on the processing

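None of the 3 hormones passed in any comparison under any of 18 alternatives but DESeq2, with which pyya passed in Drug vs FM at a log2 fold change of 4.05. Directions held except where the value lay near 0. For insl5a in SBM vs FM it was 0.065 with the replicate block, and -0.16 to 0.32 without single libraries. For mlnl in Drug vs SBM the value was -0.19 when FM replicate 3 and SBM replicate 2 were both left out, and -0.17 to 0.19 without single libraries; the cause was not tested. Without single libraries pyya ranged from 3.50 to 4.57 in Drug vs FM, 2.02 to 3.14 in SBM vs FM and 0.92 to 2.03 in Drug vs SBM, where it was 2.70 with the replicate block. The replicate block changed no call of the hormones.

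Counts over all genes were less stable. In SBM vs FM 105 passed, against 1637 with DESeq2, 248 with the stricter filter, 0 on the 2 groups alone, 49 and 69 in the fits to FPKM, 330 without both libraries, and 2 to 424 without single libraries. In Drug vs FM 777 passed, against 2455, 1578 on the 2 groups alone, 1293 with the replicate block, 1199 without both libraries, and 10 to 1711. In Drug vs SBM 7 passed, against 629 with DESeq2, 1 with the block, and 0 to 36. Hormone list calls in Drug vs FM numbered 0, against 5 with DESeq2, 2 on the 2 groups alone, 3 without both libraries and 4 without SBM replicate 2. Calls over all genes under these settings numbered 777, 2455, 1578, 1199 and 1211 in the same order. Both depth and the 3 libraries a group limit precision. For the hormones, counting error was mostly small beside the spread between libraries of a group. The exact Poisson interval of insl5a in Drug replicate 3 was 73.4 to 79.3 CPM, while the Drug libraries ran from 76.3 to 182 CPM. For mlnl in Drug replicate 2 it was 212 to 222 CPM, against 129 to 217 CPM. In SBM, where insl5a spread least, the intervals of replicates 1 and 3 overlapped. Over all genes, which limits precision more was not tested.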

Other observations

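Genes of muscle and nerve, on which motilin acts in mammals, were also listed. Of 13 tested smooth muscle genes, 1 rose in SBM vs FM and in Drug vs FM, where 0.592% and 4.38% of all genes were called. It was casq2, a calcium store protein, with log2 fold changes of 1.45 and 1.49 (adjusted p = 0.0426 and 0.0182 with edgeR) on a mean of 3.66 ± 1.03 CPM in FM (SD, n = 3). None passed in Drug vs SBM. An unadjusted p under 0.05 was found for 3, 3 and 1 in SBM vs FM, Drug vs SBM and Drug vs FM, against 20.5%, 13.1% and 23.8% of all genes, and DESeq2 called 2, 0 and 1, all higher. The muscle list's median log2 fold change was 0.58, -0.46 and 0.08 in the same order, against 0.01, -0.01 and -0.04 over all tested genes. The actin acta2 was at 5193, 6991 and 4455 CPM in FM, SBM and Drug. The muscle list summed highest in SBM replicate 2, at 24110 CPM, where mlnl was lowest, at 111 CPM. It summed lowest in FM replicate 3, at 8339 CPM, where mlnl was nearly as low, at 113 CPM. Of 22 tested enteric neuron and glia genes none passed with edgeR. Unadjusted p was under 0.05 for 1, 2 and 3 in SBM vs FM, Drug vs SBM and Drug vs FM, and DESeq2 called 1, 0 and 2. Over all tested genes the shares were 20.5%, 13.1% and 23.8% by unadjusted p. By DESeq2 they were 9.53%, 3.98% and 14%. The neuron and glia list summed to 84.2 to 152 CPM in FM, 143 to 171 CPM in SBM and 118 to 155 CPM in Drug. Its median log2 fold change was 0.35 in SBM vs FM, -0.31 in Drug vs SBM and 0.13 in Drug vs FM.

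Pancreatic enzyme transcripts, from the exocrine gland that lies along the fish gut, summed to 254, 215 and 2299 CPM in FM, 3147, 626 and 619 CPM in SBM and 1652, 2350 and 511 CPM in Drug. None of 6 tested passed with edgeR or DESeq2 in any comparison, and none had an unadjusted p under 0.05. Over all tested genes, unadjusted p was under 0.05 in 20.5%, 13.1% and 23.8% for SBM vs FM, Drug vs SBM and Drug vs FM. The library of highest sum in each group also had the most pyya. These were FM replicate 3 (13.5 CPM of pyya), SBM replicate 1 (81.9 CPM) and Drug replicate 2 (157 CPM). In FM the rest of the order held too, with pyya at 11.0 CPM in replicate 1 and 0.633 CPM in replicate 2. Within SBM and Drug the rest of the order did not hold. SBM replicates 2 and 3 had near-equal sums but 2.96 and 65.2 CPM of pyya. Drug replicate 3, lowest in the sum, had 137 CPM, and Drug replicate 1 had 119 CPM. The part of pancreatic tissue in the pyya difference was not tested. None of 12 tested hepatocyte genes passed with edgeR or DESeq2. Unadjusted p was nonetheless under 0.05 for 11, 0 and 10 in SBM vs FM, Drug vs SBM and Drug vs FM. The shares over all tested genes were again 20.5%, 13.1% and 23.8%. All 13 hepatocyte genes in the table were highest in FM replicate 3, where pyya was at 13.5 CPM.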
